A study of Mus musculus with 12 samples.

Results

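The genes described here are 10 genes known from lymph nodes, namely Glycam1, Madcam1, Ccl19, Cxcl13, Ccl22, Ccr7, Marco, Slpi, Il22ra2 and Il9r. They were read by symbol from the 12 expression tables, which list 22923 distinct symbols on 23179 lines, and all 10 were found. The genes were chosen by their FPKM values in these libraries, as genes of the node with high values in a few chow libraries, so their levels are given as a description and no p-value is attached to them. Ccl19 is listed on 2 lines, of which the second is at 0 in all 12 libraries, and the line with the higher mean was used. RNA came from the proximal hind limb skeletal muscle of male mice of the FVB strain (FVB/N in the study's methods) at 22 weeks of age, 3 mice in each of 4 groups. Each genotype, WT and KO, was kept on normal chow or given a high fat diet, and the groups are called WT chow, WT high fat, KO chow and KO high fat. The titles name the WT mice as Flox, and the study's methods describe WT littermates from heterozygous breeding. KO mice lacked both αB-crystallin (Cryab) and HspB2 (Hspb2) in all tissues, so a difference between genotypes cannot be traced to 1 of the 2 genes or to muscle fibres alone. The genotype label of 6 samples conflicts with the title, and groups follow the title. Libraries are named by group and replicate number, as in WT chow 2.

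A lymph node draws lymphocytes out of the blood through high endothelial venules, whose tall endothelial cells display sulfated, fucosylated glycoproteins to passing lymphocytes. Reticular stromal cells then lay out the node with chemokines, Ccl19 for T cells and dendritic cells and Cxcl13 for B cells, while macrophages line the sinuses through which lymph passes. Lymphotoxin signalling from lymphocytes to the stroma maintains this organisation through NF-κB factors. Nodes of the leg lie embedded in fat beside the muscles, and none of these products is a marker of muscle fibres.

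All 10 are protein-coding genes on different parts of the genome. In RefSeq's annotation of GRCm38 Glycam1 lies on chromosome 15 from 103562759 to 103565081 and Madcam1 on chromosome 10 from 79664559 to 79668542. The chemokine genes lie apart, Ccl19 on chromosome 4 from 42754525 to 42756365, Cxcl13 on chromosome 5 from 95956939 to 95961068 and Ccl22 on chromosome 8 from 94745684 to 94751388. Marco lies on chromosome 1 from 120474538 to 120505024 and Slpi on chromosome 2 from 164354070 to 164356507. The receptors lie on chromosome 11 from 99144199 to 99155077 for Ccr7 and from 32187544 to 32205283 for Il9r, and on chromosome 10 from 19622028 to 19634681 for Il22ra2. Since the genes had the same libraries in front, their promoters were read for a form of the NF-κB binding sequence, GGGNNNTTCC, or GGAANNNCCC where it runs on the opposite strand. RefSeq's promoter table of GRCm38.p6 held a window of 250 bases before the start for 8 of the 10 genes, not for Il22ra2 and Ccr7. The window of Il9r runs from 32200280 to 32200529, inside the stretch given above for that gene and not before its outer end. Madcam1 and Marco held a match, and both are printed from 5′ to 3′ along the gene's strand, with the matches in capitals, to show how they differ. Madcam1 is at chr10:79664309-79664558, plus strand, and Marco at chr1:120505025-120505274, minus strand.
Madcam1: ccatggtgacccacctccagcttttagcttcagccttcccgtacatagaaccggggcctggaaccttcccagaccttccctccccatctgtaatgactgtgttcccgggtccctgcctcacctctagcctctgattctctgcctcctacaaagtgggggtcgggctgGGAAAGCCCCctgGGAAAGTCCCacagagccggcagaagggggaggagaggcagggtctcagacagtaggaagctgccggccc
Marco: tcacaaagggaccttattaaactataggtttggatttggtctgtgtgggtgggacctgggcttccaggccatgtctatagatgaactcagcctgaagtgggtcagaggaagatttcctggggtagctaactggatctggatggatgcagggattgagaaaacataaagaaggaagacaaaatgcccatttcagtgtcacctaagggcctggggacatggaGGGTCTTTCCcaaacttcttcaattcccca
Madcam1 held 2 matches, GGAAAGCCCC at bases 168 to 177 and GGAAAGTCCC at bases 181 to 190, both reading on the opposite strand, and the nearer match ended 60 bases before the gene's start. Marco held 1 match, GGGTCTTTCC at bases 221 to 230, which ended 20 bases before the start. Of 32851 promoter windows in the table, 1527 (4.65%) held a match and 48 (0.146%) held 2 or more. The search was chosen after the expression values were seen, and a match describes letters, not binding.

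Values are FPKM, which scale reads to transcript length and library size and so allow levels to be set side by side between genes. A 0 in these tables need not mean absence, because Acta1, the skeletal muscle actin, was listed at 0 in WT chow 1 and KO high fat 2 and between 22322 and 35165 FPKM in the other 10. Cryab was between 412 and 837 FPKM in the 6 libraries titled WT and between 0.845 and 1.75 FPKM in the 6 titled KO, and Hspb2 between 81.5 and 103.1 FPKM and between 0.353 and 1.92 FPKM, so each library stood with its title. Spearman's rho between any 2 libraries was between 0.963 and 0.985, and 3 libraries nonetheless stood apart for the genes described here, WT chow 2, KO chow 1 and KO chow 3. Library totals were between 499509 and 691621 FPKM in 11 libraries and 10656400 FPKM in KO chow 3, of which the microRNA gene Mir324 made up 10172200. In muscle as a bulk tissue, more cells of a type and more RNA per cell cannot be told apart.

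The high endothelial genes came first. Glycam1, a sulfated mucin-like glycoprotein of these venules, was listed at 0, 11.9 and 0 FPKM in the WT chow libraries and at 19.5, 0 and 34.3 FPKM in the KO chow libraries. Glycam1 was at 0, 0.0895 and 0 FPKM in the WT high fat and at 0, 0.0783 and 0 FPKM in the KO high fat libraries. Both chow groups thus held libraries at 0 beside libraries above 10 FPKM, and they overlapped. In KO chow 3 Glycam1 stood above 92.0% of all symbols, while it was at 0 in 7 of the 12 libraries. Madcam1, the vascular addressin bound by integrin α4β7, was at 0, 0.357 and 0 FPKM in the WT chow and 0.473, 0 and 0.418 FPKM in the KO chow libraries. With high fat diet Madcam1 was at 0, 0.0403 and 0 FPKM in WT mice and 0.0671, 0.0671 and 0 FPKM in KO mice. The addressin was far lower than Glycam1, yet WT chow 2, KO chow 1 and KO chow 3 were again the 3 highest libraries.

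The stromal chemokines had a level above 0 in every library. Ccl19, a ligand of Ccr7, was 1.69, 28.1 and 1.83 FPKM in the WT chow and 37.8, 1.66 and 38.9 FPKM in the KO chow libraries. With high fat diet Ccl19 was 3.24, 2.52 and 2.94 FPKM in WT mice and 1.24, 2.02 and 2.19 FPKM in KO mice. The fourth highest library for Ccl19 was WT high fat 1, at 3.24 FPKM. Cxcl13, which draws B cells into follicles through Cxcr5, was 0.452, 14.3 and 2.56 FPKM in the WT chow and 19.1, 2.68 and 18.0 FPKM in the KO chow libraries. With high fat diet Cxcl13 was 0.306, 1.43 and 0.454 FPKM in WT mice and 3.17, 2.20 and 1.16 FPKM in KO mice. Cxcl13 was the least concentrated of the 10 genes, since the 3 highest libraries held 78.1% of its sum over the 12 libraries.

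Ccl22 and Ccr7, grouped here as genes of dendritic cells, had the same libraries in front. Ccl22, a chemokine of mature dendritic cells that acts on Ccr4, was 0.0955, 5.29 and 0.0889 FPKM in the WT chow and 7.36, 0.252 and 6.89 FPKM in the KO chow libraries. The high fat values of Ccl22 were 0.0307, 0.0314 and 0.244 FPKM in WT mice and 0.297, 1.14 and 0.532 FPKM in KO mice. Every KO library on high fat diet lay above every WT library on high fat diet, the nearest at 0.297 against 0.244 FPKM. The counting error of such low values is unknown. Ccr7, the receptor that brings naive T cells and dendritic cells to the node, was 0, 5.15 and 0.0550 FPKM in the WT chow and 7.13, 0.0290 and 6.56 FPKM in the KO chow libraries. Ccr7 did not exceed 0.277 FPKM on high fat diet in either genotype. Between the 3 libraries and the other 9 there was no value of Ccr7 between 0.277 and 5.15 FPKM.

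Marco and Slpi differed from each other on high fat diet. Marco, a scavenger receptor of macrophages in the sinuses of nodes and in the marginal zone of the spleen, was 0, 6.80 and 0.0383 FPKM in the WT chow and 8.14, 0.0413 and 12.2 FPKM in the KO chow libraries. Marco did not exceed 0.175 FPKM in any library on high fat diet. Slpi, a secreted inhibitor of neutrophil elastase made by epithelia and by myeloid cells, was 0, 11.2 and 0.0649 FPKM in the WT chow and 28.7, 0.274 and 47.7 FPKM in the KO chow libraries. The high fat values of Slpi were 4.94, 0.629 and 1.83 FPKM in WT mice and 0.235, 0.289 and 0.206 FPKM in KO mice. All 3 WT libraries on high fat diet lay above all 3 KO libraries on high fat diet for Slpi, which was not so for Marco. The neutrophil gene S100a8 was 522, 59.0 and 197 FPKM in WT mice and 18.9, 10.2 and 7.05 FPKM in KO mice on high fat diet, so the order of the 3 WT libraries was the same for Slpi and S100a8. On normal chow the order was not the same, since S100a8 was 59.4 FPKM in KO chow 1 and 17.3 FPKM in KO chow 3 while Slpi was higher in KO chow 3. The part of neutrophils in the level of Slpi was not tested.

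The cytokine receptors were the lowest of the genes beside Madcam1. Il22ra2, a soluble receptor that binds interleukin 22 and blocks it, was 0, 1.21 and 0.0211 FPKM in the WT chow and 1.61, 0 and 2.98 FPKM in the KO chow libraries. Given high fat diet, Il22ra2 was at most 0.0216 FPKM in WT mice and between 0.0551 and 0.0896 FPKM in KO mice. Il9r, the receptor chain for interleukin 9, was 0, 0.682 and 0 FPKM in the WT chow and 1.75, 0.0323 and 1.57 FPKM in the KO chow libraries. Il9r did not exceed 0.0410 FPKM in any library on high fat diet. The ligand genes were also low, with Il9 listed at 0 in all 12 libraries and Il22 listed at 0 in all but KO chow 3, where it was 0.0768 FPKM. The filter of 1 FPKM in 3 libraries was passed by 8 of the 10 genes, not by Madcam1 and Il9r, and Glycam1, Ccr7, Marco and Il22ra2 passed it only through WT chow 2, KO chow 1 and KO chow 3.

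**Figure D1:**
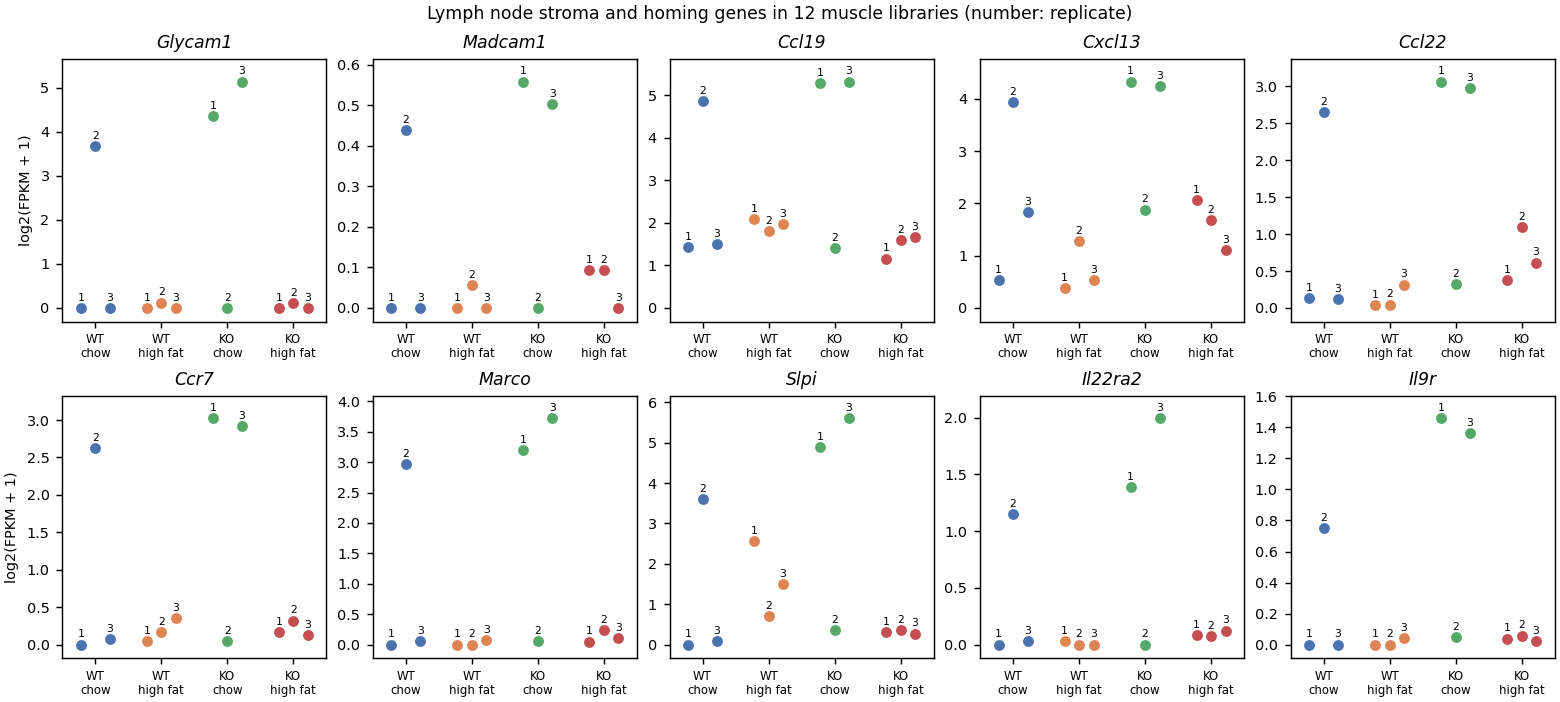
Level of each gene in the 12 libraries, as log2(FPKM + 1) on the vertical axis of its own scale, with 1 point per library, the replicate number above it and the 4 groups along the horizontal axis. In all 10 panels WT chow 2, KO chow 1 and KO chow 3 are the 3 highest points, and the remaining chow libraries lie with or near the libraries on high fat diet.

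Set side by side, the 10 genes had the same 3 libraries in front in 10 of 10 cases. The choice of genes high in a few chow libraries largely fixed this count, and the share over all genes was not counted. These libraries held between 78.1% (Cxcl13) and 99.7% (Glycam1) of a gene's sum over the 12 libraries. The share was 87.7% for Madcam1, 84.4% for Ccl19 and 87.8% for Ccl22. It was 95.1% for Ccr7, 98.5% for Marco, 91.2% for Slpi, 95.9% for Il22ra2 and 96.5% for Il9r. By mean FPKM, KO chow came first and WT chow second for all 10 genes, and on the log2(FPKM + 1) scale WT high fat came second for Slpi. These groups overlapped with each other and with the next group, since KO chow 2, WT chow 1 and WT chow 3 lay near the high fat level. The study's groups did not separate the high libraries from the low ones for any of the 10 genes. Values below the front 3 were not alike between genes, and the fourth place went to WT high fat 1 for Ccl19 and Slpi, to KO high fat 2 for Ccl22 and to KO high fat 1 for Cxcl13.

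The likeness of other genes to these 10 was measured as a profile overlap, the part of a gene's distribution over the 12 libraries that it shares with the mean distribution of the 10 genes, in percent. Each of the 10 genes overlapped with the other 9 by between 81.7% (Slpi) and 89.6% (Marco). The 10 genes were chosen for high values in a few chow libraries, so this mutual overlap follows from the choice. Over 12530 other genes with at least 1 FPKM in a library the median was 32.9%. An overlap of at least 85% was reached by 71 of these genes (0.567%). The 12 most alike were Cd4 at 96.8%, Skap1 at 95.1%, Cd8b1 at 94.8%, Slamf6 at 94.3%, Lax1 at 94.2%, Igj at 94.0%, Pou2af1 at 93.8%, Cd6 at 93.8%, Pglyrp2 at 93.4%, Il21r at 93.1%, H2-M2 at 92.7% and Ikzf3 at 92.6%. Cd4 and Cd8b1 encode coreceptors of T cells, Cd6 a surface receptor of T cells, Igj the joining chain of secreted antibodies, and Pou2af1 a coactivator in B cells. The points share their libraries, so an overlap describes these 12 libraries and not a shared control. Cd4 was 3.54, 4.66 and 5.83 FPKM in WT chow 2, KO chow 1 and KO chow 3 and at most 0.234 FPKM in the other 9. Igj was 19.9, 36.2 and 46.8 FPKM in these libraries, and its next highest value was 2.90 FPKM in WT high fat 1.

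**Figure D2:**
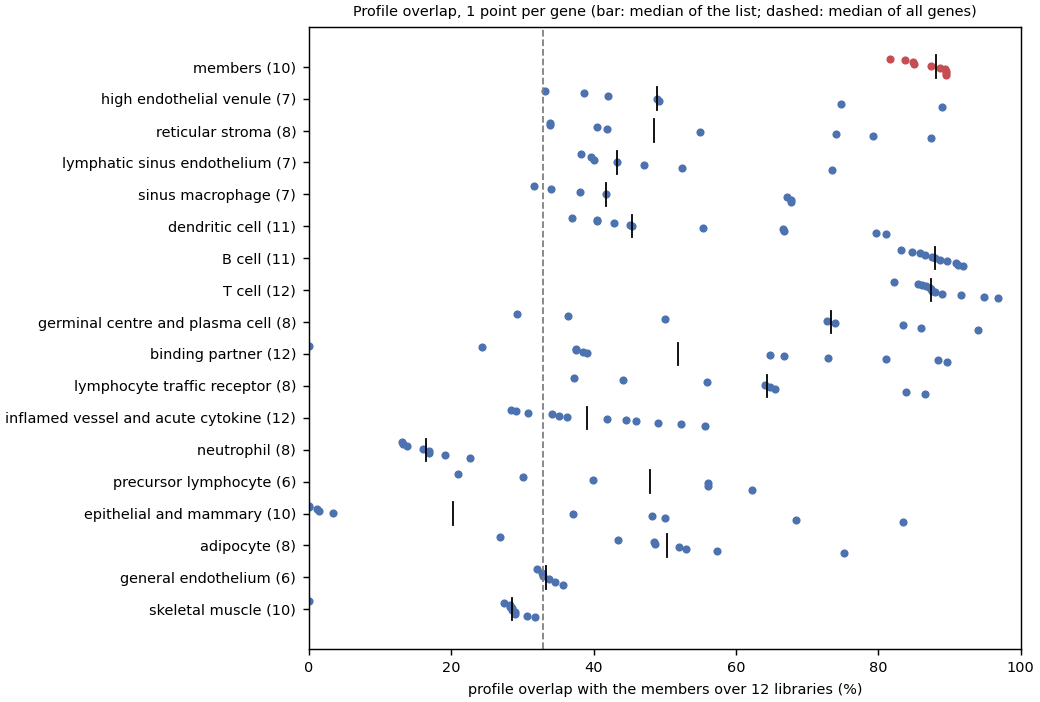
Profile overlap with the 10 genes over the 12 libraries, in percent on the horizontal axis, with 1 point per gene, a bar at the median of each list and a dashed line at the median of all genes, 32.9%. The lists of B cell and T cell genes have medians of 87.9% and 87.4%, and those of general endothelium and skeletal muscle of 33.3% and 28.5%.

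Lists of marker genes were set beside the 10 genes to show which tissue components had the same libraries in front. Of the T cell list, 12 of 12 genes reached 1 FPKM in WT chow 2, KO chow 1 and KO chow 3 and 0 of 12 did in any other library. The summed level of the T cell list was 55.9, 61.8 and 63.9 FPKM in these libraries and between 0.672 and 4.32 FPKM elsewhere. Its highest genes by mean over the 12 libraries were Tcf7, a transcription factor of T cells, the kinase gene Lck and the T cell receptor subunit gene Cd3g, at 9.07, 8.27 and 6.30 FPKM in WT chow 2. Of the B cell list, 11 of 11 genes reached 1 FPKM in the same 3 libraries. The summed level of the B cell list was 68.9, 76.1 and 76.2 FPKM there. Its highest genes, Cd79a and Cd79b of the B cell receptor and Ms4a1 (CD20), were 16.8, 15.1 and 6.97 FPKM in WT chow 2. The B cell list was not at its floor in all other libraries, with sums of 7.66 FPKM in WT high fat 1 and 4.42 FPKM in WT high fat 3 against at most 2.09 FPKM in the remaining 7. In WT high fat 1 Cd79a was 2.30 FPKM and Igj 2.90 FPKM, and the 10 genes were divided. Glycam1, Madcam1, Marco and Il9r were listed at 0 in that library, Cxcl13 was 0.306 FPKM, and Slpi and Ccl19, at 4.94 and 3.24 FPKM, had their highest value outside the 3 libraries.

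Lists of the node's own framework gave lower overlaps, in part also where WT chow 2, KO chow 1 and KO chow 3 were in front. These were the 3 highest libraries for 4 of 7 high endothelial venule and 4 of 8 reticular stroma genes. The same held for 3 of 7 lymphatic sinus endothelium, 3 of 7 sinus macrophage and 5 of 11 dendritic cell genes. The share over all genes was not counted. For high endothelial venules the median overlap was 48.9%, and 1 of 7 genes reached 85%. That gene was Chst4, a sulfotransferase of high endothelial cells, named after its values were seen, at 0.271, 0.290 and 0.424 FPKM in WT chow 2, KO chow 1 and KO chow 3 and at 0 in the other 9 libraries. The highest genes of the list were Enpp2 (autotaxin), Darc (Ackr1) and B3gnt3. Enpp2 was 23.7, 27.0 and 21.0 FPKM in the 3 libraries and between 8.37 and 14.0 FPKM in the others, and Darc and B3gnt3 overlapped by 33.2% and 38.6%. The remaining genes, Fut7, Gcnt1 and Chst2, named after their values were seen, overlapped by 74.8%, 48.9% and 42.0%. The reticular stroma list had a median overlap of 48.4%, and 1 of 8 genes reached 85%, Tnfsf11 (RANKL), named after its values were seen, at 0.905, 0.951 and 0.914 FPKM against at most 0.0638 FPKM elsewhere. Its highest genes, Ltbr (the lymphotoxin β receptor), Il33 and Pdpn (podoplanin), lay between 33.8% and 40.4%, and Ccl21a was not matched to a line of the tables. Il7, Bst1, Tnfsf13b and Coch, its remaining genes, named after their values were seen, overlapped by 79.2%, 74.0%, 54.9% and 41.9%. The lymphatic sinus endothelium list had a median overlap of 43.3%, with Lyve1 at 47.1%, Flt4 at 38.2% and Mmrn1 at 43.3% as its highest genes. Stab2 and Prox1 of that list, named after their values were seen, overlapped by 73.5% and 52.4%, and Stab2 was 0.622, 0.747 and 0.811 FPKM in the 3 libraries and at most 0.180 FPKM elsewhere. Sinus macrophage genes had a median of 41.7%. Among them Cd209b was 14.1, 17.1 and 24.5 FPKM in the 3 libraries and between 0.540 and 7.90 FPKM elsewhere, while Folr2 and Cd209d overlapped by 38.1% and 41.7%. Timd4, Siglec1, Vsig4 and Cd5l, the remaining macrophage genes, named after their values were seen, overlapped by 67.7%, 67.2%, 34.1% and 31.6%. The dendritic cell list had a median of 45.4%, with Fscn1 at 45.1%, Cd209a at 42.8% and Zbtb46 at 36.9% as its highest genes. Flt3, Ciita and Siglech of that list, named after their values were seen, overlapped more, by 81.1%, 79.7% and 66.7%, and Flt3 was 0.773, 1.07 and 0.620 FPKM in the 3 libraries and at most 0.0940 FPKM elsewhere. Many genes of these lists are also made by vessels, connective tissue or macrophages of muscle and fat.

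The partners of the 10 genes fell on both sides. Cxcr5, the receptor of Cxcl13, was 1.91, 1.96 and 2.20 FPKM in WT chow 2, KO chow 1 and KO chow 3 and at most 0.135 FPKM elsewhere. Itgb7, the β7 chain that binds Madcam1, was 7.72, 9.18 and 8.15 FPKM against at most 3.55 FPKM, while its partner chain gene Itga4 was between 0.736 and 1.64 FPKM in all libraries. Ccr4, the receptor of Ccl22, was 0.165, 0.263 and 0.582 FPKM and its other ligand Ccl17 was 0.345, 1.09 and 1.40 FPKM in the 3 libraries. Ccl17 did not have these libraries in front, since it was 0.764 FPKM in KO high fat 2 and 0.447 FPKM in KO high fat 1, and Ccr4 did not exceed 0.0585 FPKM outside them. Il2rg, the chain that Il9r pairs with, was 13.2, 15.0 and 15.0 FPKM against between 2.21 and 3.52 FPKM. Il10rb, which serves the interleukin 22 receptor, was between 6.53 and 13.3 FPKM in all libraries, and Il22ra1 did not exceed 0.0498 FPKM. Elane, the elastase that Slpi inhibits, was highest in WT high fat 1 and 3, at 4.05 and 3.20 FPKM.

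Other lists were read as checks of what else the tissue held. Lymphocyte traffic receptors had a median overlap of 64.4%, and S1pr1, Cxcr4 and Selplg, their highest genes, lay at 37.3%, 44.1% and 64.0%. The germinal centre and plasma cell list had a median of 73.3%, between Igj at 94.0% and Bcl6 and S1pr2 at 29.2% and 36.4%. The inflamed vessel and acute cytokine list had a median of 39.0% and was highest in KO high fat 2, at a sum of 38.4 FPKM, where none of the 10 genes had one of its 3 highest values. Its highest genes were Icam1, Vcam1 and Ccl2, and Vcam1 was 5.03, 6.42 and 8.95 FPKM in the 3 libraries and at most 3.49 FPKM elsewhere. General endothelium was between 133 and 153.1 FPKM in sum in all 12 libraries, with Cd34, Pecam1 and Cdh5 at overlaps between 32.8% and 34.6%. The neutrophil list summed to 1171, 125 and 450.2 FPKM in the WT high fat libraries and was led by S100a8, S100a9 and Ngp, with 131 FPKM in KO chow 1 as the highest sum among the other groups. The precursor lymphocyte list did not order the libraries as the 10 genes did, since it summed to 1.13, 2.54 and 0.270 FPKM in WT chow 2, KO chow 1 and KO chow 3 and to 1.27 FPKM in WT high fat 1. Its highest genes, the surrogate light chain genes Igll1 and Vpreb1, were 0.941 and 1.16 FPKM in KO chow 1 and 0.105 and 0.0586 FPKM in KO chow 3, and Dntt did not exceed 0.265 FPKM.

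Fat and epithelium were read for the same reason. The adipocyte list summed to 4537 and 4129 FPKM in KO chow 1 and 3, to 2184 FPKM in WT chow 2 and to between 594 and 2286 FPKM in the other 9 libraries. Its median overlap was 50.3%, with Fabp4 at 48.4%, Cfd (adipsin) at 75.2% and Adipoq at 52.0%. Adipoq (adiponectin) was 116, 224 and 195 FPKM in WT chow 2, KO chow 1 and KO chow 3 and between 1.40 and 125 FPKM elsewhere. KO high fat 3 was above WT chow 2 for the adipocyte list, and in it Glycam1 was listed at 0 and Ccl19 was 2.19 FPKM. The epithelial and mammary list had a median overlap of 20.2%, with Krt18, Cdh1 and Krt8 at 50.1%, 37.0% and 48.2%. Its sum was highest in KO chow 3, at 13.2 FPKM, against 0.673 FPKM in WT chow 2 and 1.67 FPKM in KO chow 1. Next came WT high fat 2 at 6.31 FPKM and KO high fat 2 at 5.68 FPKM. Glycam1 and Slpi are also made by mammary epithelium, and the milk protein genes Csn3 and Wap were at 0 in all 12 libraries. Csn2, named after its values were seen, was between 0.0476 and 0.0969 FPKM in the 3 libraries and at 0 in the other 9. Skeletal muscle genes overlapped by a median of 28.5%, and Ckm was lowest in KO chow 3 and KO chow 1, at 13276 and 15178 FPKM, with Tnnt3 lowest in KO chow 3 too. The part of fat, of lymphocytes or of any other tissue in the levels of the 10 genes was not tested.

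**Figure D3:**
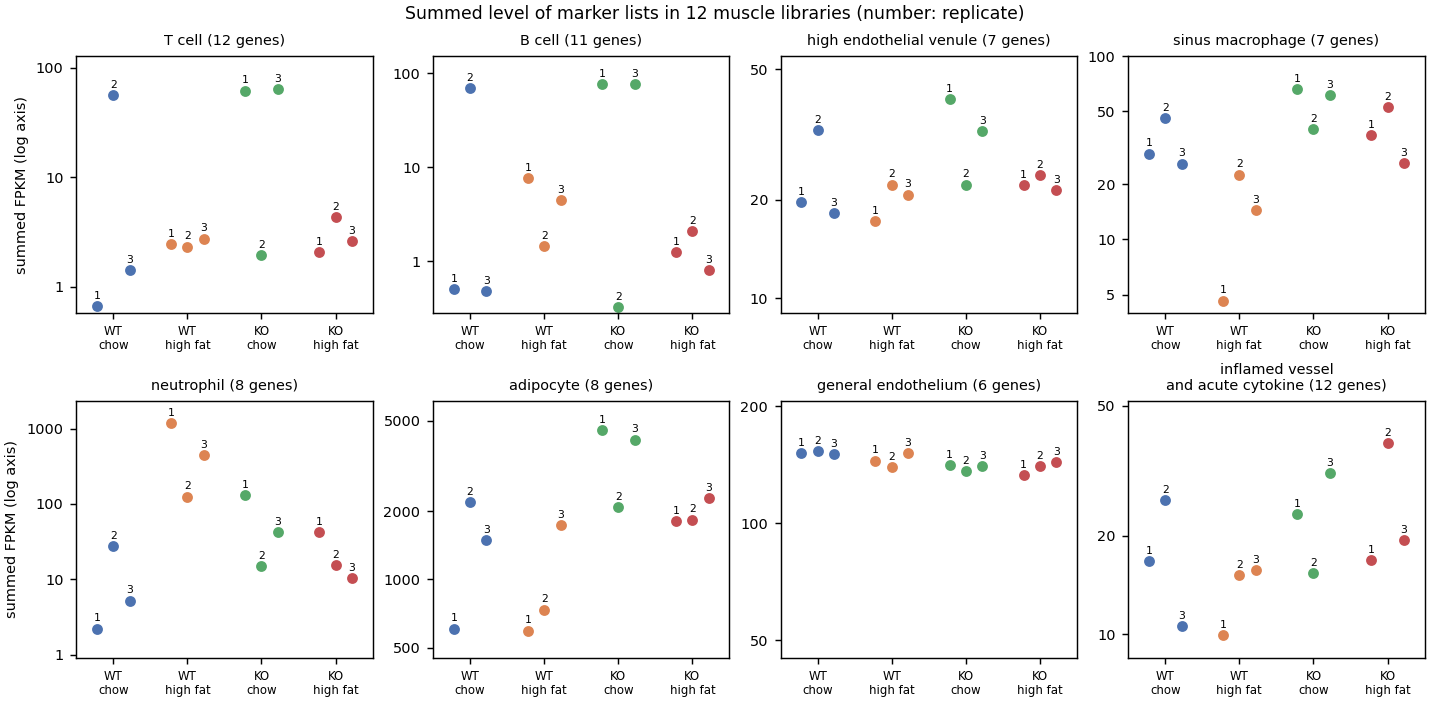
Summed FPKM of 8 marker lists in each of the 12 libraries on log axes, with the replicate number above each point and the 4 groups along the horizontal axis. The T cell and B cell lists have WT chow 2, KO chow 1 and KO chow 3 far above the rest, the general endothelium list is between 133 and 153.1 FPKM in all libraries, and the neutrophil list is highest in WT high fat 1 and 3.

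Whether the 10 genes and the lymphocyte genes kept 1 ratio across the 3 libraries was examined by dividing each gene's level in KO chow 3 by its level in WT chow 2, a measure chosen after the values were seen. The T cell list had ratios between 0.935 and 1.65 with a median of 1.16, and the B cell list had ratios between 0.896 and 1.46 with a median of 1.13. Over 11397 genes with at least 1 FPKM in both libraries the median was 0.985, and the range from the 5th to the 95th percentile was 0.738 to 1.46. The germinal centre and plasma cell list, also lymphoid, was spread more widely, from 0.815 to 5.71 with a median of 2.29, and held Igj at 2.35 and Derl3 at 3.77, the latter named after its values were seen. The ratios of the lists took every gene above 0 in both libraries, without the floor of 1 FPKM used for all genes. Of the 8 germinal centre and plasma cell genes, 4 reached 1 FPKM in WT chow 2 and 5 in KO chow 3. The range of that list thus includes ratios of low values. Of the 10 genes, 5 lay above the highest ratio of the T cell and B cell lists, and all 10 lay within the range of the germinal centre and plasma cell list. The 5 were Slpi at 4.27, Glycam1 at 2.89, Il22ra2 at 2.46, Il9r at 2.31 and Marco at 1.79. The other 5 lay within the range of the T cell list, with Madcam1 at 1.17, Cxcl13 at 1.26, Ccr7 at 1.27, Ccl22 at 1.30 and Ccl19 at 1.39. Il9r, Il22ra2 and Madcam1 were under 3 FPKM in both libraries, and the counting error of these low values is unknown.

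Cd3e, the CD3ε chain carried by T cells, was 6.46, 6.33 and 6.58 FPKM in WT chow 2, KO chow 1 and KO chow 3 and so was nearly level. Per unit of Cd3e, Glycam1 was 1.84, 3.08 and 5.21 in the same libraries. Slpi per unit of Cd3e was 1.73, 4.53 and 7.25. Ccr7, which T cells themselves carry, was 0.797, 1.13 and 0.996 per unit of Cd3e. Between KO chow 1 and WT chow 2 the 10 genes had ratios between 1.20 and 2.57, the T cell list between 0.804 and 1.33 and the B cell list between 0.796 and 1.63. In that pair of libraries the germinal centre and plasma cell list ran from 0.776 to 3.69 with a median of 1.81. Slpi and Il9r, at 2.57, and Glycam1, at 1.64, lay above the highest ratio of the T cell and B cell lists but within that range. For Glycam1 the highest B cell ratio was close, at 1.63. Ccl19, Cxcl13, Ccl22 and Ccr7, at between 1.34 and 1.39, lay above the highest T cell ratio of 1.33 but not above the B cell list. Madcam1, Marco and Il22ra2 lay above neither list. With 1 mouse behind each library these ratios have no replicate check and describe pairs of libraries, not genotypes.

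**Figure D4:**
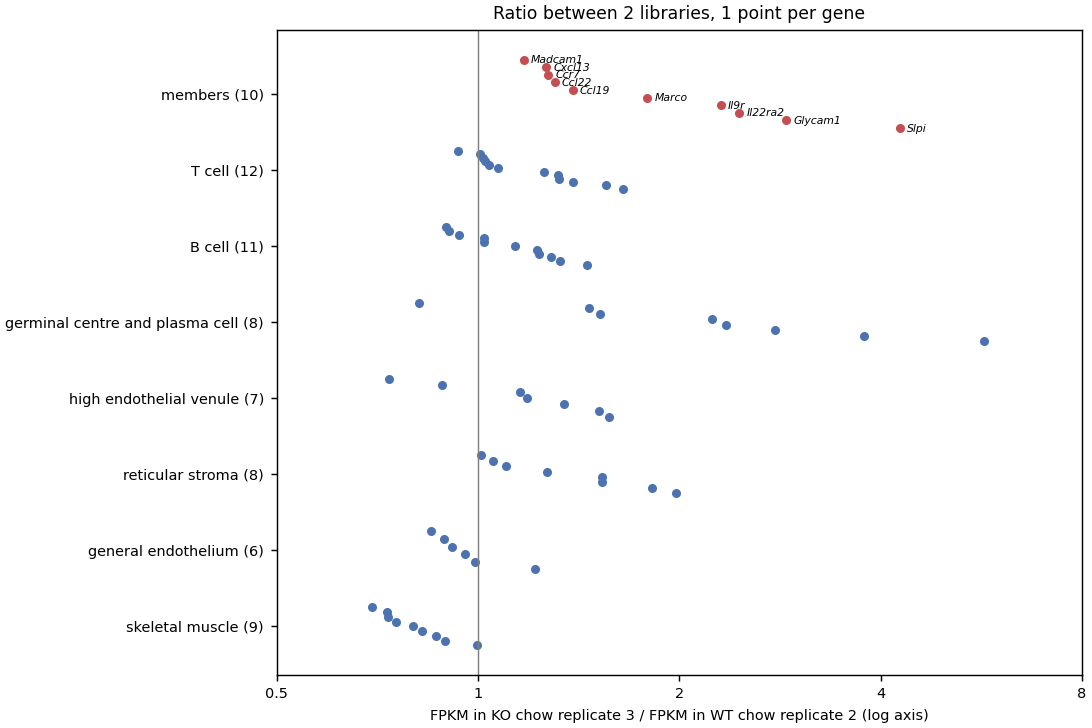
Ratio of the FPKM in KO chow 3 to the FPKM in WT chow 2 on a log axis, with 1 point per gene, for the 10 genes and 7 marker lists with the number of genes in brackets. Slpi, Glycam1, Il22ra2, Il9r and Marco lie above every T cell and B cell gene, and all 10 genes lie within the range of the germinal centre and plasma cell list, 0.815 to 5.71. That list includes genes under 1 FPKM.

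The study asked how diet and genotype bear on the muscle transcriptome, and the 10 genes were set against each of its comparisons as differences of group means on the log2(FPKM + 1) scale, on which changes of low values are understated. Their spread within groups on that scale was between 0.20 (Madcam1) and 1.82 (Slpi) as a pooled SD. The 10 genes were chosen for high values in a few chow libraries, so lower values on high fat diet follow in part from the choice. In WT mice, 9 of 10 genes were lower on high fat diet than on normal chow, with a median difference of -0.68 against -0.01 over the 11945 genes tested. The differences ran from -1.37 for Cxcl13 to 0.36 for Slpi, and Glycam1 differed by -1.19. The diet groups overlapped for all 10 genes, where 6.2% of all genes were higher and 6.88% lower without overlap. Leaving out WT chow 2 brought Glycam1 from -1.19 to 0.04, Ccl19 from -0.64 to 0.50 and Cxcl13 from -1.37 to -0.45, and it took Slpi from 0.36 to 1.55. Madcam1, Ccl22, Ccr7 and Il9r turned as well, to between 0.01 and 0.15, so 6 of the 9 negative differences in WT mice rested on WT chow 2 for their direction. Marco and Il22ra2 were left at -0.0026 and -0.0048 without WT chow 2, so the size of their differences rested on it too. Slpi turned to -0.26 without WT chow 1.

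In KO mice all 10 genes were lower on high fat diet, with a median difference of -1.83 against 0.03 over all genes tested. This direction too follows in part from the choice of genes high in chow libraries. Slpi differed the most, by -3.30, then Glycam1 by -3.13, Ccl19 by -2.52 and Marco by -2.19, and Madcam1 differed the least, by -0.29. All 10 overlapped between the diets, because KO chow 2 lay at or near the high fat level, and over all genes 10.7% were higher and 6.14% lower without overlap. Without KO chow 2 the difference of Glycam1 was -4.71, and without KO chow 3 it was -2.14. For Slpi the same omissions gave -4.93 and -2.31.

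Between the genotypes on chow all 10 genes were higher in KO mice, with a median difference of 1.24 against -0.03 over all genes tested. Since KO chow 1 and KO chow 3 are among the high libraries for which the genes were chosen, this direction follows in part from the choice. The chow comparisons share their libraries with the diet comparisons, so the directions are not separate observations. Slpi differed by 2.38, Glycam1 by 1.94, Ccl19 by 1.41 and Cxcl13 by 1.39. Each genotype held at least 1 high and 1 low library, and all 10 genes overlapped, where 8.15% of all genes were higher and 10.2% lower without overlap. Leaving out a library moved Glycam1 between 0.95 and 3.52 and Slpi between 1.39 and 4.02. Between the KO high fat and WT high fat groups, where none of the 3 high libraries enters, 7 genes were higher and 3 lower in KO mice and the median difference was 0.04. Ccl22 and Il22ra2 were higher in KO mice without overlap, where 13.0% of all genes were, by 0.56 and 0.08. Ccl19 and Slpi were lower without overlap, where 10.7% of all genes were, by differences of -0.48 and -1.28. Cxcl13 had the largest positive difference, 0.88, but WT high fat 2 lay above KO high fat 3. Il22ra2 stayed under 0.1 FPKM in all 6 libraries on high fat diet, which is too low to read a difference from. For Ccl22 the nearest libraries of the genotypes were 0.244 FPKM in WT high fat 3 and 0.297 FPKM in KO high fat 1, low values whose counting error is unknown. The difference of the diet effects between genotypes was negative for all 10 genes, with a median of -0.88, and it rests on the same 12 libraries. Cxcl13 turned from -0.51 to 0.28 without WT chow 1, and with 1 library left out Glycam1 ran from -3.53 to -0.95 and Slpi from -5.29 to -2.67.

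**Figure D5:**
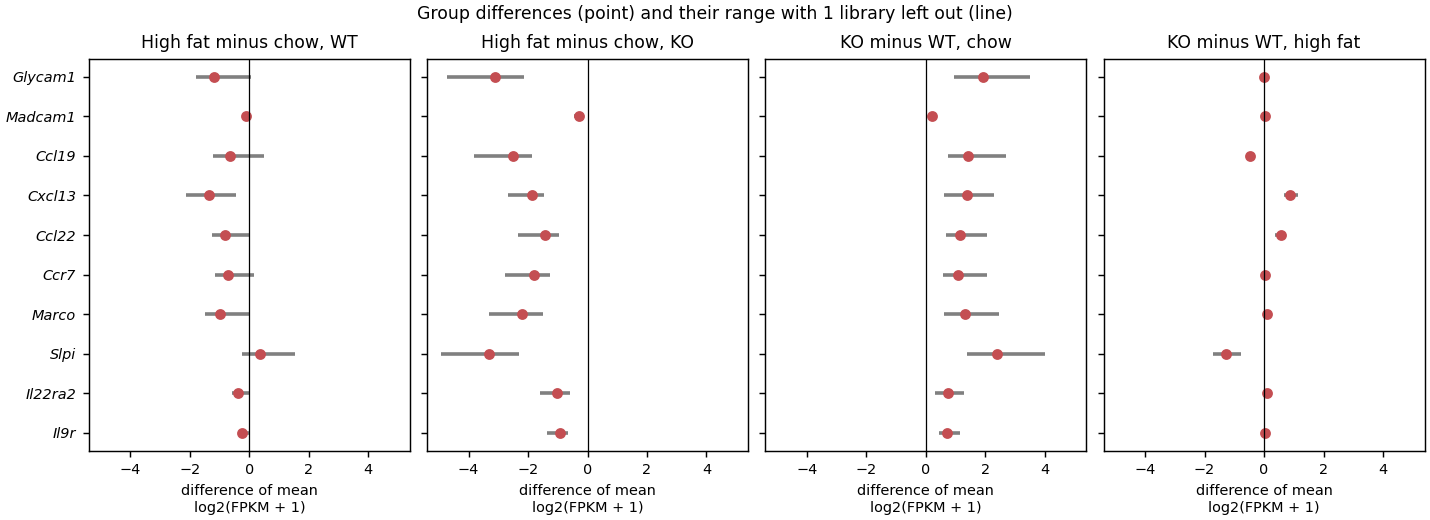
Difference of group means on the log2(FPKM + 1) scale for the 10 genes in the 4 comparisons, where points are the differences with all 12 libraries and lines span the values with 1 library left out. In KO mice all 10 differences between diets are negative, in WT mice the span of Glycam1 runs from -1.80 to 0.04, and between the high fat groups Slpi has the most negative difference, -1.28.

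Over all 11945 genes limma gave 12 genes with a Benjamini-Hochberg adjusted p under the threshold of 0.05 for diet in WT mice (0.1%), 0 for diet in KO mice (0.0%), 7 for genotype under chow (0.0586%), 13 for genotype under high fat diet (0.109%) and 0 for the interaction (0.0%). At an unadjusted p under 0.05 limma gave 970, 1349, 1990, 1940 and 746 genes in the same order. Of the 150 matched genes of the marker lists 102 were tested, and in limma none had an adjusted p under 0.05 in any comparison. The lowest adjusted p of a list gene was 0.080 for diet in WT mice, 0.39 for diet in KO mice, 0.28 for genotype under chow, 0.068 for genotype under high fat diet and 0.41 for the interaction. At an unadjusted p under 0.05 limma gave 0 higher and 29 lower list genes on high fat diet in KO mice (28.4% of those tested, against 11.3% of all genes). They included 8 of 12 T cell genes and 7 of 11 B cell genes, none of which passed after adjustment. The T cell genes reached 1 FPKM only in WT chow 2, KO chow 1 and KO chow 3, and no B cell gene reached it in KO high fat libraries. The filter thus largely fixed that these genes were lower on high fat diet in KO mice, so the 28.4% is a description only. In WT mice the same count for diet was 13 higher and 6 lower (18.6% against 8.12%), and 7 of the 13 were the 7 tested neutrophil genes. Between genotypes on normal chow 12 list genes were higher and 3 lower in KO mice (14.7% against 16.7%), 0 of them from the T cell and B cell lists. On high fat diet 16 were higher and 12 lower in KO mice (27.5% against 16.2%), among them 7 of 7 tested neutrophil genes lower and 6 of 8 adipocyte genes higher. For the interaction 1 was higher and 11 lower (11.8% against 6.25%), of which 7 were neutrophil genes. With WT chow 2, KO chow 1 and KO chow 3 left out together, a choice made after the values were seen that leaves KO mice on normal chow with 1 library assumed to vary like the others, limma called 1 gene for diet in WT mice, 0 for diet in KO mice, 5 for genotype under chow, 13 for genotype under high fat diet and 0 for the interaction, of 11569 tested.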

How the data were processed

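RNA-seq of 12 hind limb muscle samples, 3 mice per group, was analysed from the deposited tables, 1 per sample. The authors deposited 1 value per gene and library, taken here as FPKM because Cuffdiff is named and the values are not whole numbers, and replicates were not pooled. The submitters' processing notes name TopHat2 2.0.8b, Cuffdiff 2.1.1 and mm10, without settings. The annotation was not given in the sources used here. The library kit does not mark strand, so overlapping genes cannot be separated. The depth in reads is unknown, so no counting error could be given.

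Of repeated symbols the entry with the highest mean was kept. Deposited FPKM values were taken to log2(FPKM + 1), and the 11945 genes with at least 1 FPKM in at least 3 libraries entered a limma fit (version 3.58.1, R 4.3.3) with 4 group means, an intensity trend and Benjamini-Hochberg adjustment at 0.05. Python 3.11.15, NumPy 2.4.6, pandas 2.3.3 and SciPy 1.17.1 gave the other values. The limma fit was tested on simulated data. The genes described and the marker lists were chosen with earlier results of these data known, so no list was tested as a set. Named genes are the 10 genes, the 3 highest genes of each list, the binding partners except 1 that is not reported here, the 12 genes most alike and list genes called by limma. Genes outside this rule are said to be named after their values were seen. Samples were grouped by title. Alternatives were another pseudocount (0.1), no filter, a block on the replicate number, a fit of the compared groups alone, genotype from its label, quantile normalization, repeated symbols summed, each library left out, and 3 libraries left out together. Positions and promoters are RefSeq's for GRCm38.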

Additional observations from a re-analysis of the deposited data

How the results depend on the processing

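The counts of genes called by limma at an adjusted p under 0.05 were 12, 0, 7, 13 and 0 for diet in WT and in KO mice, genotype under chow, genotype under high fat diet and the interaction. With genotype by label the first 4 comparisons gave 0 genes each, by construction on other groups. Fits of only the groups compared gave 3, 7, 4 and 8 genes in the first 4 comparisons, no filter gave 6 for diet in KO mice, 24 for genotype under high fat diet and 1 for the interaction, and quantile normalization gave 9 for diet in KO mice and 26 for genotype under high fat diet. The cause of these moves was not tested. With WT chow 2, KO chow 1 and KO chow 3 left out together 1 gene was left for diet in WT mice. With 1 library left out the counts ran from 1 to 32, from 0 to 10, from 4 to 14, from 4 to 82 and from 0 to 1. The lowest count for diet in WT mice came without WT chow 1 or without WT chow 2, and the highest, 32, without WT high fat 2. For genotype under high fat diet the highest, 82, came without WT high fat 3.

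With the replicate number as a block limma called 7, 0, 4, 5 and 0 genes. The deviations of same-numbered samples had correlations from -0.806 to 0.387 over the 4 comparisons, without a common sign. Whether these samples share more than a number cannot be told from such correlations.

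Of the marker lists 0 genes were called in each comparison, and with 1 library left out the counts ran from 0 to 9 for diet in WT mice, from 0 to 6 for genotype under high fat diet and from 0 to 0 in the others. The 9 came without WT high fat 2 and were Camp, Cd209a, Elane, Ltf, Mpo, Ngp, Retnlg, S100a8 and S100a9, and 6 of these were called for genotype under high fat diet in the same fit. In the fit of only the groups compared 1 list gene, Cfd, was called for diet in KO mice.

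The differences of the 10 genes were set against the spread between replicates on the log2(FPKM + 1) scale. They moved by more than it in 16 of 50 values with a pseudocount of 0.1, 13 of 50 with genotype by label, 3 of 30 without KO chow 2, and 0 with quantile normalization or repeated symbols summed. A pseudocount of 0.1 changes the scale itself, so its 16 moves were not measured against the spread on their own scale. Signs changed in 17 of 50 values with genotype by label and in 6 of 30 without WT chow 2. Values under 1 FPKM, such as all of Madcam1, are those that the unknown depth limits most.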
